A study of Homo sapiens with 14 samples.

Results

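PC3 is an established line of human prostate carcinoma cells. Its polyadenylated RNA was sequenced from cells kept at 21% O2 (normoxia) or moved to 0.5% O2 for 16 h (hypoxia), 4 biological replicates of each. These 8 libraries were selected from the 14 of the series by their labelled cell line, and the other 6 come from HCT116, a colorectal carcinoma line (3 per condition). Both PC3 conditions were unmodified cells in the same serum-containing medium, without drug or engineered allele, and a single line stands for prostate cells here. Libraries of each condition are numbered 1 to 4, and equal numbers were treated as a pair. They were compared across all genes, with attention to genes outside the best known targets of the hypoxia-inducible factor HIF, to falling genes, and to genes seen only when the pairs enter the model.

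HIF is a dimer of an oxygen-regulated alpha subunit and a constant beta subunit. With oxygen, prolyl hydroxylases mark the alpha subunit for destruction. Without it, HIF builds up and activates genes of glycolysis, angiogenesis and iron handling through short hypoxia response elements. Cells short of oxygen are also known to restrain costly processes such as ribosome production and DNA synthesis, while many carcinoma lines remodel their adhesion to matrix.

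Every hypoxic library was shallower than every normoxic one. The gene counts summed to 98021966 to 123935458 per library in normoxia and to 71228454 to 96159803 in hypoxia, the lowest being hypoxic replicate 4. A count of 0 therefore allows up to 0.0242 to 0.0421 CPM (counts per 1000000 counts of the library, scaled), by 3 counts per library, which covers counting error only. Epithelial genes were abundant, with KRT8, a keratin of simple epithelia, at 1242 to 1868 CPM and the prostate homeobox gene HOXB13 at 64.3 to 93.8. KLK3, the gene of prostate-specific antigen, had 0 counts over all 8 libraries, and CTNNA1 (alpha-catenin, which PC3 cells are known to lack) had 33. Of the marker lists of fibroblasts, blood and immune cells, endothelium and colorectal epithelium, 9 of 10, 10 of 12, 4 of 7 and 7 of 8 genes averaged under 1 CPM over the 8 libraries. The summed levels of the lists reached 13.8, 54.5, 11.4 and 42.0 CPM, most of it from COL1A1, CD68, ESAM and CEACAM5.

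With the pairs as a block, 2125 of the 14309 genes tested were higher in hypoxia (14.9%) and 1949 were lower (13.6%), at a Benjamini-Hochberg adjusted p under 0.05 in the edgeR quasi-likelihood fit. Most changes were small, and a log2 fold change of at least 1, that is a doubling or a halving, was reached by 158 genes upward (1.1%) and 111 downward (0.776%). Without the replicate block the numbers were 863 higher (6.03%) and 757 lower (5.29%), and each of these 1620 genes was also called with the block. The pairs differed in weight: leaving out pair 4 gave 3671 higher and 3388 lower genes, and leaving out pairs 1, 2 and 3 gave 1180 and 909, 758 and 449, and 1105 and 848. Counts of gene lists with a pair left out are to be read beside these counts over all genes. Hypoxia minus normoxia had an SD over genes of 0.60 in pair 4 on the log2 scale, against 0.41, 0.45 and 0.43 in pairs 1, 2 and 3. The share of calls that were rises was 52.2%, and it was 53.9% with median-of-ratios scaling, 39.4% with upper-quartile scaling and 25.2% with total-count scaling. The last moved the median of all genes to -0.11, and fold changes given here compare each gene with the typical transcript. In bulk RNA, a change in every cell and a change in the share of cells that express a gene cannot be told apart.

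**Figure D1:**
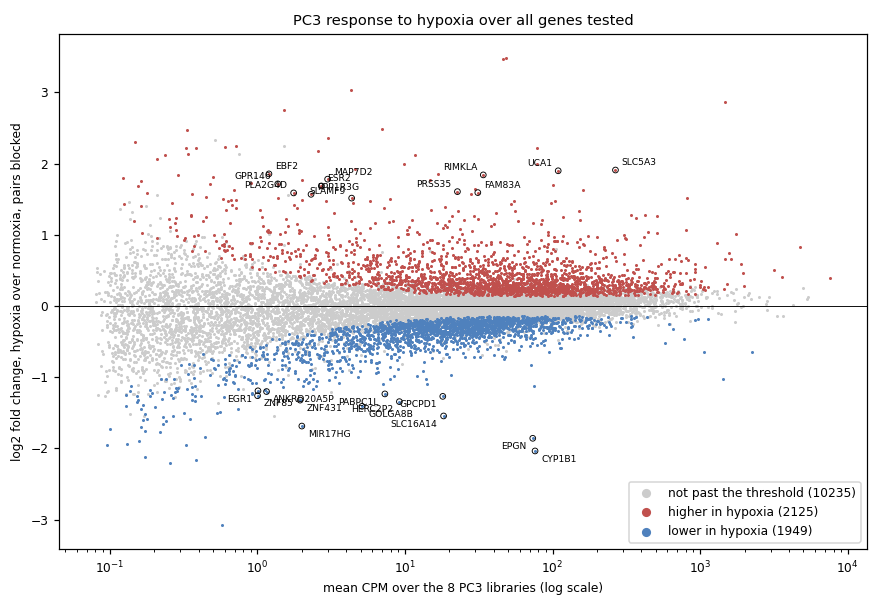
Log2 fold change (hypoxia over normoxia, pairs blocked) against mean CPM over the 8 PC3 libraries on a log scale, one point per gene. Red points are the 2125 genes past the threshold that were higher and blue points the 1949 that were lower. Circles name 12 large rises outside the best known HIF targets and 12 large falls, which lie between 1.52 and 1.91 and between -1.19 and -2.04. These genes were chosen with a mean of at least 1 CPM, the same direction in every pair and no overlap between conditions.

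The best known HIF targets responded in nearly every case. This list too was made with earlier results of these data known, so it is no independent reference. Of 95 tested, 88 rose (92.6%, against 14.9% of all genes) and 2 fell (2.11%, against 13.6%), with a median log2 fold change of 1.02. HMOX1, the haem-degrading oxygenase, had the largest rise of the list at 3.48 ± 0.15 (log2 fold change ± standard error, as for all such values of the text), and TFRC, the transferrin receptor, was one of the falls at -0.46 ± 0.06. The other fall was PFKM, the muscle isoform of phosphofructokinase, at -0.28 ± 0.04.

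Outside that list, the largest rises were in genes of transport, membrane lipid and glycogen handling, and signalling, together with a long non-coding RNA. The 12 described here were past the threshold, had a mean of at least 1 CPM, rose in every pair and did not overlap between conditions, a separation that 21.3% of all tested genes had in one direction or the other. SLC5A3, the sodium-coupled importer of myo-inositol, an osmolyte, led them. SLC5A3 stood at 119, 113, 98.3 and 109 CPM in normoxic replicates 1 to 4 and at 577, 453, 335 and 328 CPM in the hypoxic ones. Each hypoxic library was above every normoxic one, replicate 1 being the highest of both conditions, and the log2 fold change was 1.91 ± 0.11 (adjusted p = 1.80e-04). The gene lies at chr21:35445878-35478559 (GRCh37, + strand) and its span overlaps the mitochondrial ribosomal protein gene MRPS6 on the same strand, which itself rose by 0.98, so reads of the 2 genes may not be fully separated.

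UCA1, a long non-coding RNA first described in bladder carcinoma, followed. UCA1 (chr19:15939016-15947138) stood at 79.9, 33.1, 33.1 and 33.4 CPM in normoxic replicates 1 to 4 and at 322, 143, 143 and 85.4 CPM in the hypoxic ones. Replicate 1 was more than double any other library of its condition, yet the rise was similar in pairs 1 to 3 (2.01, 2.11 and 2.11 on the log2 scale) and smaller in pair 4 (1.35). The fold change was 1.90 ± 0.13 (adjusted p = 3.28e-04). RIMKLA, which joins N-acetylaspartate to glutamate, behaved differently among pairs. RIMKLA (chr1:42846463-42889903) stood at 15.7, 14.3, 14.3 and 13.7 CPM in normoxic replicates 1 to 4 and at 39.5, 54.3, 46.7 and 72.8 CPM in the hypoxic ones. Normoxic levels were close together, hypoxic replicate 4 was the highest of all, and the log2 fold change was 1.84 ± 0.16 (adjusted p = 6.39e-04).

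Several of the rises were in genes of low abundance. EBF2, a transcription factor of the early B-cell factor family known from brown adipocytes, was counted 40 to 86 times per normoxic and 68 to 201 times per hypoxic library. EBF2 stood at 0.746, 0.389, 0.611 and 0.334 CPM in normoxic replicates 1 to 4 and at 2.29, 2.27, 1.91 and 1.03 CPM in the hypoxic ones. Hypoxic replicate 4 was the lowest of its condition and still above every normoxic library, and the log2 fold change was 1.86 ± 0.21 (adjusted p = 0.00156). MAP7D2, a microtubule-binding protein gene, stood at 2.047, 1.01, 1.21 and 1.15 CPM in normoxic replicates 1 to 4 and at 6.62, 4.22, 4.2 and 3.46 CPM in the hypoxic ones. The conditions did not overlap and the log2 fold change was 1.78 ± 0.12 (adjusted p = 2.60e-04). ESR2, the gene of oestrogen receptor beta, rose by a similar amount in each pair. ESR2 stood at 1.08, 1.6, 1.22 and 1.23 CPM in normoxic replicates 1 to 4 and at 3.31, 5.27, 3.8 and 4.17 CPM in the hypoxic ones. Its 4 pair differences lay between 1.61 and 1.76, around a fitted 1.69 ± 0.10. The span of ESR2 (chr14:64550950-64804830) overlaps that of SYNE2 on the opposite strand. The use of strand in counting is not given in the sources used here and shared exons were not checked. Reads of the partners may therefore not be fully separated.

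FAM83A, an adaptor protein gene linked to growth factor signalling, was higher in hypoxia within each pair by 1.43 to 1.68. FAM83A stood at 11.2, 16.1, 15.03 and 19.5 CPM in normoxic replicates 1 to 4 and at 34.3, 51.6, 40.6 and 60.8 CPM in the hypoxic ones. Replicate 1 was here the lowest of both conditions, and the fold change was 1.59 ± 0.06. PRSS35, a serine protease-like gene, rose by 1.61 ± 0.17, at 10.96 ± 1.57 CPM in normoxia and 34.4 ± 11.3 in hypoxia (SD, n = 4). PLA2G4D, a cytosolic phospholipase A2, rose by 1.59 ± 0.16. PPP1R3G, a subunit that directs protein phosphatase 1 to glycogen, rose by 1.57 ± 0.16. The receptor genes GPR146 and SLAMF9 rose by 1.72 ± 0.25 and 1.52 ± 0.18, GPR146 overlapping C7orf50 on the opposite strand with the same uncertainty. Among all 12, the largest pair difference fell in pair 2 for 6 genes and in pair 4 for 4.

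**Figure D2:**
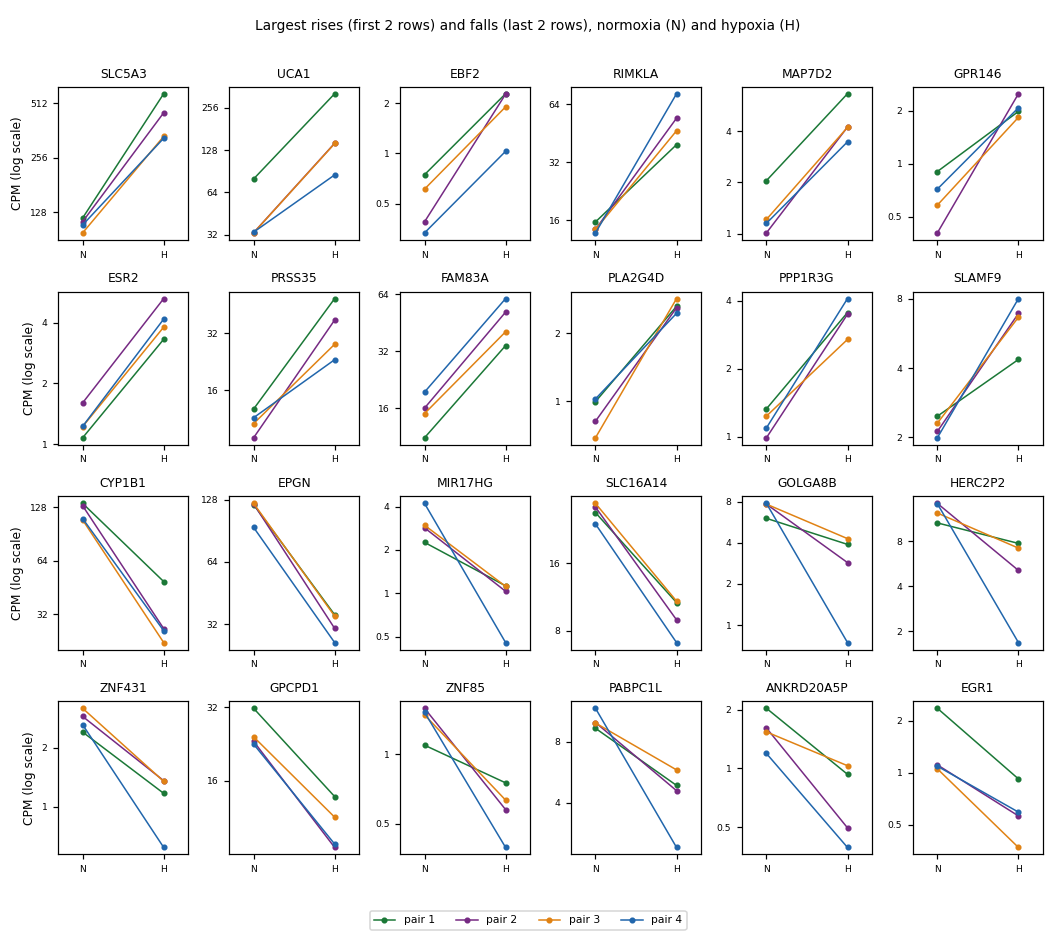
CPM (log scale) in normoxia (N) and hypoxia (H) of 12 rising genes (first 2 rows) and 12 falling genes (last 2 rows) in PC3, with a line for each of the 4 pairs. All 12 rises and all 12 falls moved one way in 4 of 4 pairs, which the choice of genes required. The line of pair 4 was the steepest in several falls, such as GOLGA8B at -3.37 on the log2 scale.

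The promoters of 2 of these genes are shown because both contain the core letters of the hypoxia response element, in capitals (ACGTG or GCGTG on either strand). The sequences run 5' to 3' from 250 bases before to 50 after the RefSeq start (GRCh38.p14).
SLC5A3 promoter, chr21:34073328-34073627, + strand: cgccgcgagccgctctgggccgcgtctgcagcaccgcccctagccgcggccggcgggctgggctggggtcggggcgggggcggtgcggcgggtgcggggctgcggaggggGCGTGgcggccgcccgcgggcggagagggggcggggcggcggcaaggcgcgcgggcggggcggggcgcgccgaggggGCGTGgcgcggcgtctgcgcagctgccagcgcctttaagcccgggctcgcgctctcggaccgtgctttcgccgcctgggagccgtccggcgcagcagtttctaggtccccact
MAP7D2 promoter, chrX:20116858-20117157, - strand: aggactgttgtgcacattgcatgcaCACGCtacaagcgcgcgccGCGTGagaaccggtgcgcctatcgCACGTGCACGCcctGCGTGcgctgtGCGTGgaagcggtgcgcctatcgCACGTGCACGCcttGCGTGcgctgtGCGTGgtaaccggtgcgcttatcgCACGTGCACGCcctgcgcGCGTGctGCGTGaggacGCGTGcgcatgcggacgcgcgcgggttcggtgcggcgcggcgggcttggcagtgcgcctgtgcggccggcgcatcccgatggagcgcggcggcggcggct
SLC5A3 held 2 matches and MAP7D2 held 18, many of them at a repeated spacing. Where CACGTG, an E-box, occurs, it counts as a match on each strand. Of the 27305 promoters of the table, 48.4% held at least 1 core, and of the 11176 tested genes with a promoter 62.0% did. Among the best known HIF targets 57 of the 77 with a promoter did (74.0%), and among genes that rose by at least 1 outside that list 48 of 81 (59.3%). The 9 of the 12 rises with a promoter in the table included 7 with a core, and PRSS35 and PLA2G4D had none. A match describes letters and not binding. Promoters were found for under 80% of the 14309 genes tested and of the rises outside the HIF list, so these shares are given with no comparison.

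An enzyme of xenobiotic metabolism and a growth factor had the largest falls among the 15 named falling genes. CYP1B1, a cytochrome P450 that oxidises oestrogens and polycyclic compounds and a known target of the aryl hydrocarbon receptor, fell the most of the named genes. CYP1B1 (chr2:38294116-38337044) stood at 135, 131, 109 and 111 CPM in normoxic replicates 1 to 4 and at 48.9, 26.6, 22.2 and 25.9 CPM in the hypoxic ones. Hypoxic replicate 1 was about double the other hypoxic libraries and far below all normoxic ones, and the log2 fold change was -2.04 ± 0.14 (adjusted p = 3.41e-04). The span of the gene overlaps that of RMDN2 on the opposite strand. Shared exons were not checked and strand use is unknown, so its reads may not be fully separated from those of RMDN2. Of the 10 tested genes of the aryl hydrocarbon receptor battery, 2 fell (20%, against 13.6% of all genes) and 1 rose (10%, against 14.9%). In so short a list these shares are near those of all genes. Without the block, or without pair 1, 2 or 3, 1 fell and 0 rose by edgeR. The other fall was TIPARP, an ADP-ribosyltransferase that restrains the receptor, at -0.25 ± 0.07, and the rise was LRAT, a retinol esterifying enzyme, at 0.32 ± 0.09, with adjusted p of 0.0743 and 0.187 without the block.

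EPGN encodes epigen, a ligand of the EGF receptor. EPGN (chr4:75174187-75182506) stood at 121, 122, 123 and 94.0 CPM in normoxic replicates 1 to 4 and at 35.5, 30.5, 35.0 and 26.1 CPM in the hypoxic ones. Replicate 4 was the lowest in both conditions and the fall was nearly the same in each pair, at -1.86 ± 0.06 (adjusted p = 7.38e-05). Of 15 tested EGF ligands and ERBB receptors 6 fell and 1 rose. AREG, amphiregulin, fell by 0.93 on the log2 scale, at 8.57 ± 1.12 CPM in normoxia and 4.51 ± 0.845 in hypoxia (SD, n = 4). BTC, betacellulin, had a change of -0.62 ± 0.06. The single rise was the receptor EGFR itself at 0.51 ± 0.06, opposite to these 3 ligands.

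MIR17HG is the primary transcript of the miR-17-92 cluster, which is known to promote proliferation. MIR17HG (chr13:91999940-92049846) stood at 2.26, 2.85, 2.97 and 4.2 CPM in normoxic replicates 1 to 4 and at 1.13, 1.03, 1.12 and 0.455 CPM in the hypoxic ones. Hypoxic replicate 4, with 30 counts, was the lowest hypoxic library, and no hypoxic value reached the lowest normoxic one. The log2 fold change was -1.69 ± 0.32 (adjusted p = 0.01), but without pair 2 the adjusted p was 0.0527. The mature microRNAs were not measured. The 6 guide-strand products encoded by the transcript are printed 5' to 3' from RefSeq, with the seed (bases 2 to 8) in capitals, to show which seeds the falling transcript carries.
hsa-miR-17-5p: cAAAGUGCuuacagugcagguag
hsa-miR-20a-5p: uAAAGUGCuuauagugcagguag
hsa-miR-18a-5p: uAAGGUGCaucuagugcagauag
hsa-miR-19a-3p: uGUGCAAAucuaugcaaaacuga
hsa-miR-19b-3p: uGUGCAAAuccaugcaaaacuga
hsa-miR-92a-3p: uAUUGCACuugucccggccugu
The microRNAs miR-17-5p and miR-20a-5p share the seed AAAGUGC, and miR-19a-3p and miR-19b-3p share GUGCAAA.

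SLC16A14, an orphan member of the monocarboxylate transporter family, fell evenly. SLC16A14 (chr2:230899698-230933709) stood at 26.8, 28.4, 29.5 and 23.9 CPM in normoxic replicates 1 to 4 and at 10.7, 8.94, 10.8 and 7.08 CPM in the hypoxic ones. The conditions were far apart and the log2 fold change was -1.54 ± 0.08 (adjusted p = 1.50e-04). GPCPD1, which releases choline from glycerophosphocholine, changed by -1.27 ± 0.07, at 25.4 ± 4.22 CPM in normoxia and 10.6 ± 2.46 in hypoxia (SD, n = 4). SLC25A27, a mitochondrial inner membrane carrier, changed by -1.19 ± 0.18. EGR1, an immediate early transcription factor, changed by -1.19 ± 0.17 at a low level of 1.41 ± 0.641 CPM in normoxia and 0.611 ± 0.229 in hypoxia, and it passed the threshold only with the block.

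In other large falls pair 4 carried much of the change. NEAT1, the long non-coding RNA that builds nuclear paraspeckles is one of them. NEAT1 (chr11:65190245-65213011) stood at 157, 79.0, 79.2 and 87.2 CPM in normoxic replicates 1 to 4 and at 78.4, 41.9, 54.6 and 20.1 CPM in the hypoxic ones. Replicate 1 was about double the others in normoxia, hypoxic replicate 4 was the lowest library by far, and the pair differences were -1.002, -0.92, -0.54 and -2.12. The fitted value was -1.13 ± 0.23 (adjusted p = 0.0127), and it was -0.82 without pair 4. GOLGA8B, a golgin gene of a multicopy family on chromosome 15, and the pseudogene HERC2P2 of the same chromosome changed by -1.41 ± 0.38 and -1.34 ± 0.37. Without pair 4 these were -0.95 and -0.89. The call of GOLGA8B was lost when pair 1, 2 or 3 was left out (adjusted p = 0.0513, 0.126 and 0.062), and that of HERC2P2 when pair 2 or 3 was (0.139 and 0.0638). Reads of GOLGA8B, HERC2P2, ANKRD20A5P (-1.20) and LOC441666 (-1.17) may be split among near-identical copies, so these values are uncertain. PABPC1L, a poly(A)-binding protein gene, fell at -1.23 ± 0.23 and is uncertain for its overlap with TOMM34 on the opposite strand. Without pair 2, the calls of MIR17HG, ZNF85, PABPC1L, ANKRD20A5P, LOC441666 and NEAT1 were lost as well, at adjusted p of 0.0527, 0.0629, 0.051, 0.0534, 0.06 and 0.0561.

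Over all 15 named falls the largest difference was that of pair 4 in 10. Among all 1949 falling genes it was in 49.0%, and among the 2125 rising genes 46.9% had theirs in pair 4. Falling genes also differed in base composition. The median GC content of the longest transcript was 44.6% for falling genes, 51.4% for rising genes and 48.1% for all tested genes, with 90.1%, 92.8% and 89.5% of the genes matched to the annotation. Of the 3203 matched genes with the lowest GC content 19.6% fell and 9.77% rose, and of the 3203 with the highest 9.15% fell and 19.6% rose. Median differences of these sets were -0.04 and 0.02 in pair 1, -0.06 and 0.06 in pair 2, -0.05 and 0.04 in pair 3, and -0.09 and 0.12 in pair 4. The part of base composition, or of the lower depth of hypoxic replicate 4, in the falls was not tested.

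Zinc finger genes are a large family with many falling members. Of 429 tested genes named ZNF, a family rich in DNA-binding repressors, 157 fell (36.6%, against 13.6% of all genes) and 27 rose, with a median of -0.25, and without the replicate block 66 fell and 12 rose. The number of falls was 86, 47, 93 and 204 with pair 1, 2, 3 or 4 left out. On chromosome 19, where these genes form large clusters, 95 of 204 fell (46.6%, median -0.33), against 62 of 219 elsewhere (28.3%, median -0.14). Other genes of chromosome 19 had a median of 0.07, and 7.21% of them fell. ZNF431 and ZNF85, both on that chromosome, changed by -1.32 ± 0.19 and -1.26 ± 0.24. ZNF431 stood at 2.4, 2.89, 3.17 and 2.62 CPM in normoxic replicates 1 to 4 and at 1.17, 1.36, 1.35 and 0.622 CPM in the hypoxic ones. The conditions did not overlap, and hypoxic replicate 4 was the lowest. The median level of the family's genes on chromosome 19 was 7.52 CPM. Not every member fell: ZNF469, a large gene mutated in brittle cornea syndrome, rose by 1.11 ± 0.06, and ZNF385A, an RNA-binding zinc finger protein, by 1.10 ± 0.05.

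Many genes of ribosome production fell, and 1 cytosolic ribosomal protein gene passed the test. Of 57 tested factors of ribosome biogenesis, 25 were lower and 1 was higher (median -0.19), and 42 were lower in every pair, a pattern 25.3% of all tested genes showed. Counts of falls were 13, 8, 14 and 43 with pair 1, 2, 3 or 4 left out, and 10 without the block. RRS1, a factor in the assembly of the large subunit, was among the largest falls. RRS1 stood at 94.1, 107, 112 and 101 CPM in normoxic replicates 1 to 4 and at 70.1, 70.9, 82.1 and 60.4 CPM in the hypoxic ones. No hypoxic value reached the normoxic range, and the log2 fold change was -0.55 ± 0.06 (adjusted p = 0.0019). POLR1E, a subunit of RNA polymerase I, fell at -0.48 ± 0.06, and NOP58, a core protein of box C/D small nucleolar particles, at -0.46 ± 0.10. The member that rose was IMP3 (0.32 ± 0.07), of the small subunit processome.

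Host genes of small nucleolar RNAs, which guide modification of ribosomal RNA, fell as well, and 10 of 18 were lower and 1 was higher, with a median of -0.31. SNHG1 stood at 62.8, 77.0, 74.4 and 78.4 CPM in normoxic replicates 1 to 4 and at 48.2, 51.7, 60.5 and 38.9 CPM in the hypoxic ones. Pair 4 showed the largest drop (-1.01), and the fitted change was -0.56 ± 0.11 (adjusted p = 0.012). SNHG12 and SNHG7 changed by -0.58 ± 0.10 and -0.60 ± 0.17, and DANCR rose by 0.18 ± 0.06. Falls numbered 8, 4, 7 and 13 with pair 1, 2, 3 or 4 left out. Among 77 tested cytosolic ribosomal protein genes 1 was higher and 0 lower by edgeR with the block, and without it 0 were called in either direction. Without pair 4, 11 were higher and 2 lower, while over all genes 3671 were higher and 3388 lower. Their median difference was 0.48 in pair 4, where all 77 were higher in hypoxia, and 0.00, 0.09 and -0.03 in pairs 1, 2 and 3. The difference between these lists was not tested.

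Falls outnumbered rises in lists of DNA repair, replication and nucleotide synthesis. Of 25 tested genes of homologous recombination and repair 11 fell and 0 rose, all 25 had a fitted change below 0, and the median was -0.20. BLM, the helicase lost in Bloom syndrome, was 29.7 ± 2.53 CPM in normoxia and 22.4 ± 2.15 in hypoxia (SD, n = 4), a change of -0.41 ± 0.06 (adjusted p = 0.00315). The mismatch repair gene PMS2 and the BRCA2 partner PALB2 changed by -0.45 ± 0.07 and -0.34 ± 0.09. Of 45 replication genes 9 fell (20%, against 13.6% of all genes) and 0 rose (median -0.08), led by the clamp loader subunits RFC4 (-0.42 ± 0.06) and RFC3 (-0.37 ± 0.06) and by MCM10 (-0.36 ± 0.05), which helps start the replication fork. Nucleotide synthesis had 7 falls and 0 rises among 23, DHODH, the mitochondrial enzyme of pyrimidine synthesis, being the largest at -0.57 ± 0.09. With pair 1, 2, 3 or 4 left out, the falls numbered 2, 2, 3 and 19 for repair, 4, 3, 4 and 25 for replication and 3, 1, 3 and 15 for nucleotide synthesis. Over all genes the falls at these settings numbered 909, 449, 848 and 3388, so calls over all genes also increased without pair 4. Without pair 4, 4 replication and 3 nucleotide synthesis genes also rose, and in pair 4 itself the list medians were 0.05 and 0.08, above 0, with 24 of 45 and 13 of 23 genes higher in hypoxia. Without the block, falls numbered 2 in each of the 3 lists. Of 32 mitosis genes 4 were higher (12.5%, against 14.9% of all genes) and 1 was lower (3.1%, against 13.6%). These counts became 17 and 3 without pair 4, and 0 and 0 by edgeR without pair 1, 2 or 3 or without the block.

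Lists of splicing genes and of mitochondrial transcription, translation and import showed smaller falls. Of 42 SR proteins, hnRNPs and CLK kinases 12 fell and 2 rose (median -0.12), among them the splicing factors SRSF5 (-0.40 ± 0.09) and SRSF7 (-0.38 ± 0.05), whereas the kinase CLK3 rose by 0.49 ± 0.06. Of 35 genes of mitochondrial transcription, translation and import 11 fell and 1 rose, with MTIF2, an initiation factor, the largest fall at -0.37 ± 0.06 and LONP1, the matrix protease, the rise at 0.35 ± 0.05. Falls numbered 2, 1, 3 and 23 in the first and 4, 2, 4 and 22 in the second list with pair 1, 2, 3 or 4 left out. Mitochondrial ribosomal protein genes did not share this, as 8 of 75 fell (10.7%, against 13.6% of all genes) and 1 rose, with a median of -0.04. In the respiratory chain 1 of 37 complex I genes and 3 of 38 genes of complexes II to V rose and 0 fell in the edgeR fit, and without pair 4 there were 6 rises and 5 falls in complex I and 10 rises and 4 falls in complexes II to V. Their medians of 0.09 and 0.13 stood beside medians of 0.37 and 0.42 in pair 4 and of -0.01 to 0.08 in the other pairs, and that of complex I was -0.01 with total-count scaling. Of 35 proteasome genes, 1 rose, PSMD2 at 0.21 ± 0.05, and without pair 4 there were 3 rises and 6 falls. Over all genes 3671 rose and 3388 fell without pair 4, so these lists gained calls along with all genes.

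**Figure D3:**
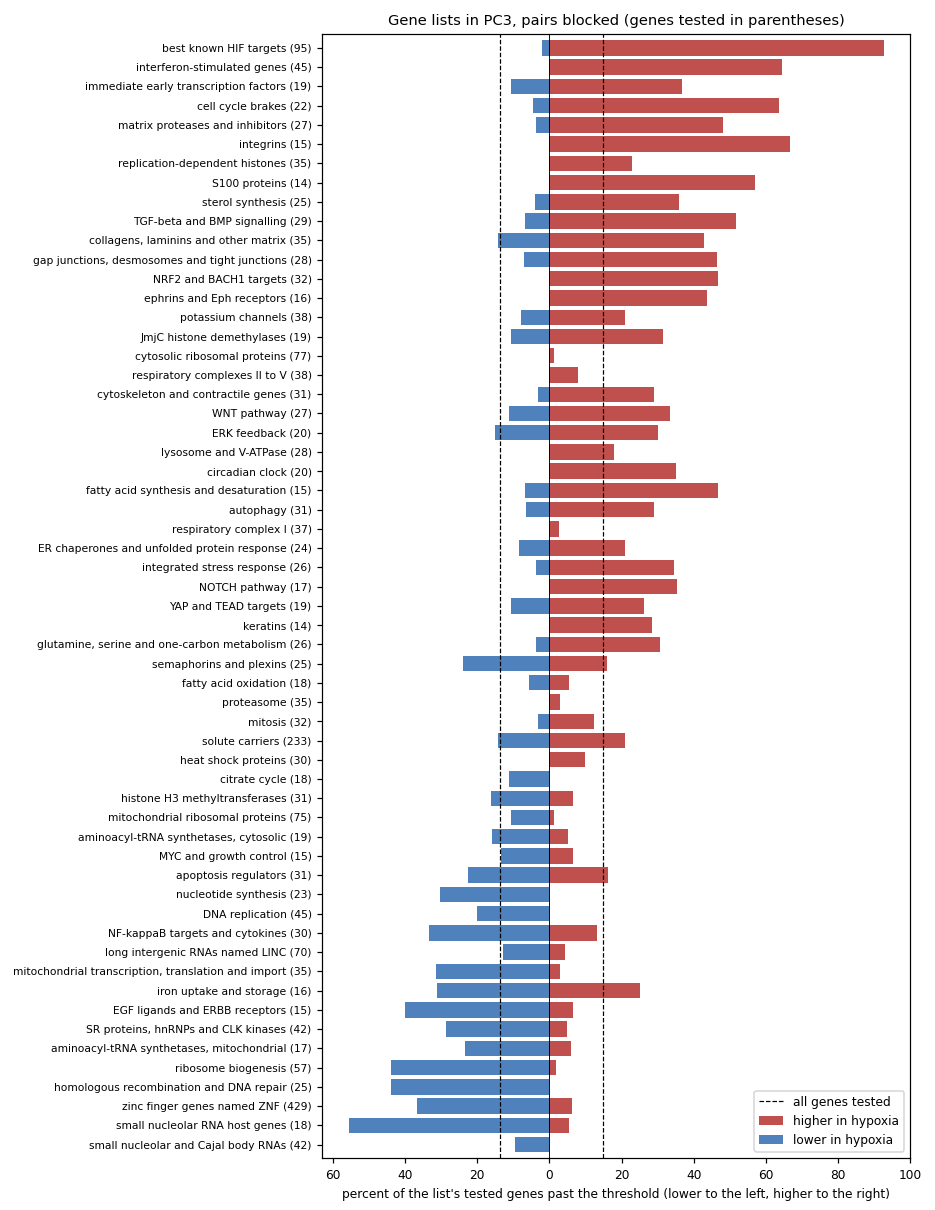
Percent of each list's tested genes that were higher (red, to the right) or lower (blue, to the left) in hypoxic PC3 cells with the pairs blocked, ordered by the list's median log2 fold change, with the number tested in parentheses. Dashed lines mark all genes tested, 14.9% higher and 13.6% lower. Small nucleolar RNA host genes reach 55.6% lower, integrins 66.7% and interferon-stimulated genes 64.4% higher.

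Lists of adhesion to matrix and to neighbouring cells had many rising members. Of 15 integrin genes 10 rose and 0 fell (median 0.27). ITGA5, which pairs with beta1 as the fibronectin receptor, led them. ITGA5 stood at 31.1, 27.4, 25.5 and 32.4 CPM in normoxic replicates 1 to 4 and at 76.1, 79.9, 64.6 and 105 CPM in the hypoxic ones. The lowest hypoxic library, replicate 3, was far above the highest normoxic one, replicate 4, and the log2 fold change was 1.47 ± 0.07 (adjusted p = 1.50e-04). ITGB4, the hemidesmosome integrin, averaged 928 ± 240.4 CPM in normoxia and 1690.5 ± 288 in hypoxia (SD, n = 4), 0.88 ± 0.07 on the log2 scale. Matrix proteases and their inhibitors had 13 rises and 1 fall among 27, and in this list the 2 plasminogen activators moved apart: PLAT, the tissue type, rose by 1.07 ± 0.06, while PLAU, the urokinase type, changed by -0.64 ± 0.05. PLAU stood at 1389, 1235, 1247 and 1278 CPM in normoxic replicates 1 to 4 and at 902, 753, 854 and 793 CPM in the hypoxic ones. Each hypoxic value was below each normoxic one.

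Collagens, laminins and other matrix genes were mixed, with 15 of 35 higher (42.9%, against 14.9% of all genes) and 5 lower (14.3%, against 13.6%). COL6A3 (collagen VI, 0.83 ± 0.11) and LAMA3 (a laminin-332 chain, 0.49 ± 0.09) rose, and THBS1, thrombospondin 1, an anti-angiogenic matrix protein, fell, at 2743 ± 599.8 CPM in normoxia and 1771 ± 519 in hypoxia (-0.65 ± 0.08). Gap junction, desmosome and tight junction genes had 13 rises and 2 falls among 28. The connexin gene GJB5 rose by 0.97 ± 0.08, and the tight junction gene CLDN1 fell at -0.41 ± 0.05. Ephrins and Eph receptors had 7 rises and 0 falls among 16, including EPHB3 (0.89 ± 0.08) and its ligand EFNB1 (0.59 ± 0.05). Semaphorins and plexins were divided, and their median of 0.06 was below 0 with total-count scaling. Of 25, 4 were higher (16%, against 14.9% of all genes), such as SEMA4B (0.82 ± 0.06). Another 6 were lower (24%, against 13.6%), such as PLXNB3 (-0.50 ± 0.12), and the falls numbered 1, 0, 1 and 7 with pair 1, 2, 3 or 4 left out. With pair 1, 2, 3 or 4 left out, rises numbered 7, 4, 6 and 13 for integrins, 8, 8, 9 and 15 for proteases, 11, 4, 6 and 22 for matrix, 10, 5, 8 and 17 for junctions and 6, 4, 5 and 9 for ephrins.

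Signalling genes of the TGF-beta and BMP family rose in 15 of 29 and fell in 2. The strongest was NOG, noggin, a secreted BMP antagonist. NOG stood at 46.7, 30.9, 35.7 and 28.4 CPM in normoxic replicates 1 to 4 and at 112, 71.5, 73.8 and 67.7 CPM in the hypoxic ones. Pair differences were within 1.05 to 1.26 and the fitted value was 1.19 ± 0.05 (adjusted p = 1.37e-04). ID1, a BMP target that blocks differentiation factors, rose by 0.86 ± 0.05, and INHBA, an activin subunit, fell at -0.35 ± 0.06. In the WNT pathway 9 of 27 rose and 3 fell. FZD8, a WNT receptor, was 279 ± 28.5 CPM in normoxia and 551 ± 102 in hypoxia (0.97 ± 0.06). NOTCH pathway genes had 6 rises and 0 falls among 17, with NOTCH3 at 0.77 ± 0.07, and a median of 0.07 that was below 0 with total-count scaling. Rises numbered 9, 7, 9 and 19 for TGF-beta and BMP, 4, 4, 4 and 9 for WNT and 5, 4, 5 and 7 for NOTCH with pair 1, 2, 3 or 4 left out.

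Brakes of the cell cycle rose in 14 of 22 and fell in 1 (median 0.29). CCNG2, an unconventional cyclin that slows the cycle, stood at 25.9, 21.1, 19.7 and 28.8 CPM in normoxia and 48.8, 54.3, 39.6 and 66.4 in hypoxia, with no overlap, a change of 1.12 ± 0.08 (adjusted p = 3.62e-04). MXD1, a MYC antagonist, and KLF4, a transcription factor of differentiation, rose by 0.88 ± 0.05 and 0.85 ± 0.07. The damage-induced gene GADD45A was the exception at -0.21 ± 0.05. Immediate early transcription factors were split. JUN rose by 0.66 ± 0.06 and CSRNP1 by 1.08 ± 0.10, whereas EGR1 fell, and in all 7 of 19 rose and 2 fell. Rises numbered 11, 7, 10 and 15 for the brakes and 6, 6, 6 and 9 for the early factors with pair 1, 2, 3 or 4 left out.

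Stress and metal-handling lists differed in direction. Targets of NRF2 and BACH1, which respond to oxidants and haem, rose in 15 of 32 and fell in 0. AKR1C3, a steroid-reducing enzyme, averaged 4.67 ± 1.87 CPM in normoxia and 7.48 ± 2.63 in hypoxia (0.69 ± 0.08). The integrated stress response had 9 rises and 1 fall among 26, with CTH, of cysteine synthesis, at 0.77 ± 0.06 and ASNS, asparagine synthetase, the fall at -0.21 ± 0.06; its median of 0.07 was below 0 with total-count scaling. In iron metabolism 4 of 16 rose and 5 fell, and without pair 1, 2, 3 or 4 the rises were 2, 0, 2 and 5 and the falls 3, 3, 3 and 7. FTH1, ferritin heavy chain, rose by 0.40 ± 0.07, and the metalloreductases STEAP1 and STEAP2 fell at -0.44 ± 0.07 and -0.72 ± 0.07. The metallothionein MT1X, a zinc-binding protein, rose by 1.20 ± 0.11. Among 14 S100 calcium-binding proteins 8 rose and 0 fell, S100A2 by 0.92 ± 0.05 and S100A4 by 0.86 ± 0.12. The number of rises was 8, 5, 9 and 18 for NRF2 and BACH1 targets, 6, 6, 6 and 12 for the stress response and 5, 5, 6 and 9 for S100 proteins with pair 1, 2, 3 or 4 left out.

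Targets of NF-kappaB and cytokines moved in both directions. Of 30 tested, 10 fell (33.3%, against 13.6% of all genes) and 4 rose (13.3%, against 14.9%), with a median of -0.09. CXCL2 and CXCL3, chemokines that attract neutrophils, both fell. CXCL2 stood at 8.03, 3.47, 3.42 and 2.99 CPM in normoxic replicates 1 to 4 and at 3.86, 1.88, 2.02 and 1.2 CPM in the hypoxic ones. Hypoxic replicate 1 lay above 3 normoxic libraries, so the conditions overlapped although each pair fell, and the change of -0.99 ± 0.12 (adjusted p = 0.00189) had an adjusted p of 0.149 without the block. CXCL3 changed by -0.87 ± 0.09. IL11, a cytokine of the IL-6 family, rose instead. IL11 stood at 2.81, 2.32, 1.68 and 2.86 CPM in normoxic replicates 1 to 4 and at 5.8, 6.65, 5.54 and 8.11 CPM in the hypoxic ones. It did not overlap and changed by 1.44 ± 0.12 (adjusted p = 6.38e-04). NFKBIA, the inhibitor of NF-kappaB, rose by 0.63 ± 0.05, and NFKBIZ changed by -0.98 ± 0.29, of which pair 4 gave -2.42 and the others -0.41 to -0.71. Falls numbered 5, 5, 6 and 12 with pair 1, 2, 3 or 4 left out.

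Blocking the pairs added 2454 genes (17.2% of those tested), 1262 higher and 1192 lower. Their changes were modest, with a median size of 0.28 on the log2 scale and quartiles of 0.22 and 0.39, against 0.47 for the 1620 genes called either way, and 59 of them exceeded 1. In 98.7% the 4 pairs moved the same way, but the conditions were free of overlap in 34.0%, against 97.9% of the genes called either way. The median SD between pairs was 0.155 for these genes and 0.102 for those called either way, while the SD of the pair differences was 0.119 and 0.126. Their median standard error was 0.0621 with the block and 0.114 without it. Since the set was formed from these same values, they are given as a description with no test.

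The 6 largest rises seen only with the block were CCL26, DUSP1, TNFSF9, FSCN2, CP and ITGB3. DUSP1 encodes a phosphatase that switches off MAP kinases. DUSP1 (chr5:172195099-172198198) stood at 26.98, 7.85, 9.39 and 7.69 CPM in normoxic replicates 1 to 4 and at 48.8, 20.1, 22.4 and 23.6 CPM in the hypoxic ones. Normoxic replicate 1 was higher than hypoxic replicates 2 to 4, so the conditions overlapped, while each pair rose by 0.855 to 1.61. The log2 fold change was 1.26 ± 0.12 (adjusted p = 8.49e-04) with the block, and the adjusted p was 0.135 without it. TNFSF9, the ligand of 4-1BB, a receptor of activated T cells, had the same form. TNFSF9 (chr19:6531037-6535935) stood at 8.32, 3.27, 3.84 and 3.67 CPM in normoxic replicates 1 to 4 and at 19.5, 7.59, 7.73 and 8.74 CPM in the hypoxic ones. Replicate 1 was more than double the other libraries of its condition, the pairs rose by 1.01 to 1.25, and the change was 1.18 ± 0.07 (adjusted p = 2.23e-04), against an adjusted p of 0.0791 without the block.

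CCL26, the chemokine eotaxin-3, was the largest of these rises. CCL26 (chr7:75398851-75419214) stood at 2.49, 1.05, 0.986 and 1.31 CPM in normoxic replicates 1 to 4 and at 9.01, 3.01, 2.23 and 3.17 CPM in the hypoxic ones. Hypoxic replicate 1 was well above the others, and the changes were 1.48 ± 0.14 (adjusted p = 9.08e-04) with the block and an adjusted p of 0.0607 without. ITGB3, the beta3 integrin, stood at 6.53, 2.31, 2.1 and 2.29 CPM in normoxia and 9.83, 4.47, 4.44 and 5.44 in hypoxia, with replicate 1 highest in both and a change of 0.96 ± 0.12 (adjusted p = 0.0025). FSCN2, an actin-bundling fascin of the retina, rose by 1.06 ± 0.17. CP, ceruloplasmin, a copper-carrying ferroxidase and one of the best known HIF targets, rose by 1.01 ± 0.18, its normoxic replicate 1 at 2.48 CPM standing above hypoxic replicates 2 to 4 at 0.698 to 1.18. CP overlaps HPS3 on the opposite strand, and its value is uncertain for the same reason. In all 6 of these rises replicate 1 was the highest library of both conditions.

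The 6 largest falls seen only with the block were GOLGA8B, HERC2P2, EGR1, LOC441666, SPINK5 and NEAT1. SPINK5, an inhibitor of epidermal serine proteases, was the one that overlapped between conditions. SPINK5 stood at 3.68, 1.5, 1.75 and 1.25 CPM in normoxic replicates 1 to 4 and at 1.64, 0.863, 0.99 and 0.303 CPM in the hypoxic ones. Normoxic replicate 4 was below hypoxic replicate 1, although every pair fell, and the change was -1.14 ± 0.21 (adjusted p = 0.00903) with an adjusted p of 0.17 without the block.

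**Figure D4:**
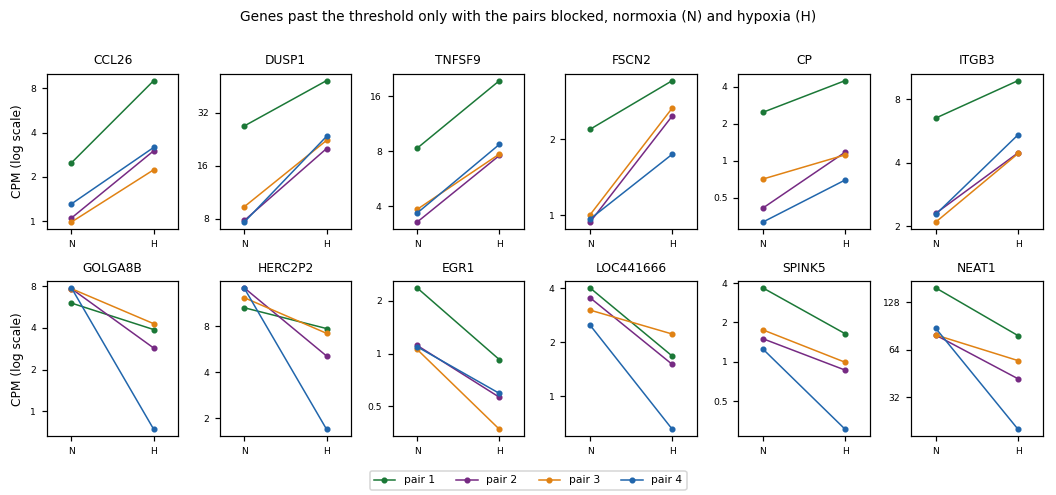
CPM (log scale) in normoxia (N) and hypoxia (H) of the 6 named rises (first row) and 6 named falls (second row) seen only with the pairs blocked, with a line for each pair. Lines of a gene run in one direction in 4 of 4 pairs, which the choice of genes required. In the first row the line of pair 1 lies above the others.

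Interferon-stimulated genes passed the threshold mostly when the pairs were blocked. With the block 29 of 45 rose and 0 fell (median 0.36), and without it 1 rose, ISG20, and 0 fell. The count of rises was 21, 21, 20 and 37 with pair 1, 2, 3 or 4 left out, 26 with upper-quartile and 22 with total-count scaling (1 fall in each), and with DESeq2 33 rose with the block and 4 without. IFITM1, a membrane protein that hinders viral entry, rose the most. IFITM1 stood at 139.7, 85.1, 78.2 and 53.2 CPM in normoxic replicates 1 to 4 and at 235, 140.4, 164 and 104 CPM in the hypoxic ones. The 4 libraries of each condition spanned a wide range with replicate 1 highest and replicate 4 lowest, and the pairs rose by 0.723 to 1.07, with a fitted 0.88 ± 0.07 (adjusted p = 5.34e-04) and an adjusted p of 0.106 without the block.

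MX2, a dynamin-like antiviral GTPase, showed the same order of libraries. MX2 stood at 142, 67.7, 53.4 and 31.5 CPM in normoxic replicates 1 to 4 and at 224, 106, 109 and 49.6 CPM in the hypoxic ones. Its change was 0.74 ± 0.08 (adjusted p = 0.00115), and without the block the adjusted p was 0.388. ISG20, an RNA exonuclease, stood at 9.25, 5.86, 5.8 and 8.2 CPM in normoxic replicates 1 to 4 and at 11.2, 11.8, 10.9 and 14.7 CPM in the hypoxic ones. Here the conditions did not overlap, and the change was 0.76 ± 0.12 (adjusted p = 0.00564). The antiviral genes IFIT1, OAS1, MX1 and ISG15 changed by 0.56 ± 0.06, 0.63 ± 0.06, 0.59 ± 0.07 and 0.54 ± 0.07; these 4 were chosen after their values were seen.

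Across the 45 genes the mean level of a pair, relative to all pairs, had a median of 0.70, -0.05, -0.06 and -0.63 on the log2 scale for pairs 1 to 4. Hypoxia minus normoxia within the pairs had medians of 0.33, 0.26, 0.49 and 0.35, with 42, 40, 43 and 33 genes higher in hypoxia. Differences between pairs were thus larger than the difference between conditions. The median SD between pairs was 0.536 in this list against 0.138 for all tested genes, and the median SD of the pair differences was 0.160 against 0.152. Blood and immune cell markers summed to 37.1 to 40.4 CPM in normoxia and 44.9 to 54.5 in hypoxia, most of it CD68. Of the other markers, LYZ, PTPRC, FCER1G and ITGAM had 822, 411, 83 and 74 counts over the 8 libraries. The T cell markers CD3D and CD3E had 3 and 4.

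**Figure D5:**
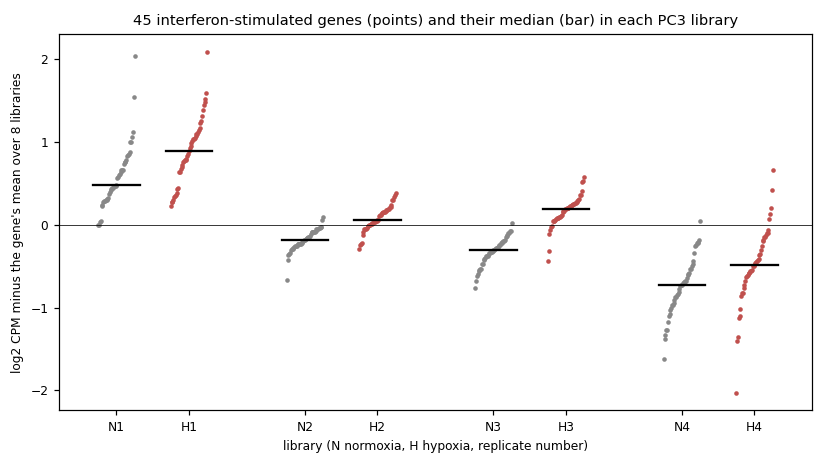
Log2 CPM of 45 interferon-stimulated genes minus each gene's mean over the 8 libraries (points, sorted within a library) and their median (bar), by pair, normoxia in grey and hypoxia in red. Hypoxia lies above normoxia in each pair, while pair 1 lies highest and pair 4 lowest in both conditions.

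Promoters of 3 interferon-stimulated genes are shown with the interferon-stimulated response element in capitals. It was searched on both strands as GAAA, any 2 bases and GAAA (RefSeq starts, GRCh38.p14, 5' to 3').
IFITM1 promoter, chr11:313790-314089, + strand: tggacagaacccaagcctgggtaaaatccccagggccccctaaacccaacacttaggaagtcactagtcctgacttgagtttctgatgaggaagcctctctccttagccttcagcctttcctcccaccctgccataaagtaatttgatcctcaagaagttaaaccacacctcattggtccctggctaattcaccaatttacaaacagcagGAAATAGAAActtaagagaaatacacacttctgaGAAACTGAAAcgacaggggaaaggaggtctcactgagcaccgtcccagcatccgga
IFIT1 promoter, chr10:89392373-89392672, + strand: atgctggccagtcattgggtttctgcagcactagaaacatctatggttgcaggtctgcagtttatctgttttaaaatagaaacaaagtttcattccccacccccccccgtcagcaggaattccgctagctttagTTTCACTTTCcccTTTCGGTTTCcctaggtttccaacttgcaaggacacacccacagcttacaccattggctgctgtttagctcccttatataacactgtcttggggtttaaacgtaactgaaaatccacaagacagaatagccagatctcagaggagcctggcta
ISG15 promoter, chr1:1013247-1013546, + strand: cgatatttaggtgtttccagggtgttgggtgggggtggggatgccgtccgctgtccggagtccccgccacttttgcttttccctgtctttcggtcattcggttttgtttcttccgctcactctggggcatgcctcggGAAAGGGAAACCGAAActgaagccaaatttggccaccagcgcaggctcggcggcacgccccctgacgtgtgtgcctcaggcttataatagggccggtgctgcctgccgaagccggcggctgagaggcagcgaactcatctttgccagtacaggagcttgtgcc
Of the 36 genes of the list with a promoter in the table, 24 held the motif (66.7%), against 3.65% of all 27305 promoters and 2.82% of the tested genes with a promoter. The list was made of known interferon-stimulated genes, so this share describes the list and not the response to hypoxia. Of all genes called higher, 2.34% of those with a promoter held the motif. A match describes letters and not binding. IFITM1, IFIT1 and ISG15 each held 2 matches, those of ISG15 overlapping. OAS1 and RSAD2 held no match of this spacing in this window. Both held GAAACGAAA, a closer spacing that this search did not count.

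Lipid synthesis shared the dependence on the block. Of 25 sterol synthesis genes 9 rose and 1 fell with the block and 0 moved in either direction without it, by edgeR, and by DESeq2 without the block 0 were called as well. INSIG1, which retains the sterol sensor in the endoplasmic reticulum, was the largest. INSIG1 stood at 21.1, 16.1, 11.5 and 26.6 CPM in normoxic replicates 1 to 4 and at 25.6, 30.7, 18.7 and 64.5 CPM in the hypoxic ones. Replicate 4 was highest in both conditions, and the pairs rose by 0.279 to 1.28, for a change of 0.80 ± 0.15 (adjusted p = 0.00871). The cholesterol carrier gene STARD4 rose by 0.61 ± 0.08, whereas HMGCS1, an early enzyme of the pathway, fell at -0.28 ± 0.07. The desaturase gene SCD averaged 1132 ± 267 CPM in normoxia and 1794 ± 448 in hypoxia (0.66 ± 0.06, adjusted p = 9.15e-04 with and 0.0684 without the block). Sterol synthesis counted 8, 2, 4 and 14 rises with pair 1, 2, 3 or 4 left out, and fatty acid synthesis, with 7 of 15 over all pairs and 1 without the block, counted 4, 3, 4 and 8, its median turning below 0 with total-count scaling.

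The 5 largest rises and 5 largest falls were also compared with HCT116, by the interaction of line and oxygen in edgeR over all 14 libraries (8.44% of 15493 genes past the threshold in either direction). MAP7D2 and EBF2 rose in PC3 and had log2 fold changes of -0.87 ± 0.43 and -0.09 ± 0.15 in HCT116, neither past the threshold. The differences of PC3 minus HCT116 were 2.65 ± 0.30 (adjusted p = 4.09e-04) and 1.96 ± 0.28 (adjusted p = 0.00144), although MAP7D2 was at 0.172 CPM in normoxic HCT116 cells. SLC5A3 rose in both lines and by 1.52 ± 0.14 more in PC3. CYP1B1 fell in PC3 and stood at 2.66 ± 0.194 and 2.76 ± 0.38 CPM in normoxic and hypoxic HCT116 cells (SD, n = 3), a difference between lines of -2.09 ± 0.19. EPGN, at 0.177 CPM in normoxic HCT116 cells, and SLC16A14 differed by -1.72 ± 0.27 and -1.14 ± 0.12. RIMKLA rose more in HCT116, by 2.59, a difference of -0.73 ± 0.19, and UCA1 more in PC3, by 0.74 ± 0.18, both of which lost the threshold without the block. For MIR17HG and GOLGA8B, which fell in both lines, the differences of -0.75 ± 0.37 and -0.52 ± 0.43 did not pass it.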

How the data were processed

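Polyadenylated RNA of PC3 and HCT116 cells was sequenced, with ERCC spike-in added. The authors aligned reads to the spike-in sequences and then to GRCh37 with HISAT2 (version 2.05 per the submitters' processing notes) and counted them over RefSeq genes with HTSeq (version 0.5.4p3). They deposited raw counts for 23106 gene symbols per library. Strandedness of counting and the RefSeq release are not given in the sources used here, and spike-in counts were not used here.

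Genes were filtered by edgeR's filterByExpr (version 4.0.16, R 4.3.3) by condition, leaving 14309, and scaled by TMM. The quasi-likelihood test used condition with the replicate number as a block, two-sided, Benjamini-Hochberg adjusted over all genes, threshold 0.05. Standard errors divide the unshrunk log2 change by the square root of F. Values per library are counts per 1000000 (CPM) of the TMM-scaled library total. The numbers come from the library labels, which do not say what a number shares. They were taken to pair the libraries because the deviations from condition means (log2 CPM, prior count 1) correlated across 14309 genes at 0.675, 0.267, 0.140 and 0.282 for numbers 1 to 4, and at -0.420 to 0.198 for different numbers. Number 3 was hardly set apart, since hypoxic replicate 3 correlated at 0.136 with normoxic replicate 2. The 0.198 of normoxic replicate 4 with hypoxic replicate 2 was above the value of number 3. The common biological coefficient of variation was 0.0881 with the block and 0.157 without.

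Gene lists, members and tests were chosen with earlier results of these data known. Named genes passed the threshold, averaged 1 CPM or more, moved one way in every pair and did not overlap: the 12 largest rises outside the best known HIF targets and the 15 largest falls. Of genes called only with the block that averaged 1 CPM or more and moved one way in every pair, the 6 largest each way are named. Overlap between conditions was allowed for these. Up to 3 genes per list and direction that passed the threshold and averaged 1 CPM or more are named as well. Lists are described by counts and medians, with no set test. With all pairs and the block, the background for each count is the share over all genes tested, 14.9% higher and 13.6% lower. With a pair left out or without the block, it is the number called over all genes at that setting. Positions and GC content follow GENCODE v44 lifted to GRCh37 (12810 genes matched), promoters and microRNAs RefSeq. Alternatives were no block, 3 other scalings, 3 other filters, DESeq2 (1.42.0) with and without the block, limma-voom (3.58.1), and each pair left out. Tests were first run on simulated data. Some genes are not reported here.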

Additional observations from a re-analysis of the deposited data

Results flagged for a closer look

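In 15 of the 70 groups of 4 libraries examined, 1 library stood far from the other 3 by Dixon's criterion at 95%, and chance flags about 1 in 20 groups, here 3.5. Of the 15, 13 were libraries of replicate 1, and the groups are not independent of each other since they share libraries. The genes examined include those named for passing only with the block, a choice that favours large differences between replicates. The chance number does not allow for that choice, so the 2 numbers are not comparable. In normoxia, replicate 1 was high for UCA1 (79.9 CPM against 33.1 to 33.4), NEAT1 (157 against 79.0 to 87.2), DUSP1 (26.98), TNFSF9 (8.32), ITGB3 (6.53), EGR1 (2.37) and FSCN2 (2.19), and low for GOLGA8B (6.04 against 7.67 to 7.76). In hypoxia it was high for CYP1B1 (48.9 against 22.2 to 26.6), DUSP1 (48.8), TNFSF9 (19.5), CCL26 (9.01) and CP (4.49). Replicate 4 was low for EPGN in normoxia (94.0 CPM) and for MIR17HG in hypoxia (0.455 CPM).

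The response to hypoxia differed between PC3 and HCT116, by edgeR's interaction test, for 8 of the 10 genes compared. PC3 minus HCT116 was 2.65 for MAP7D2, 1.96 for EBF2, 1.52 for SLC5A3, 0.74 for UCA1, -0.73 for RIMKLA, -1.14 for SLC16A14, -1.72 for EPGN and -2.09 for CYP1B1 on the log2 scale. These genes were chosen for their large change in PC3.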

How the results depend on the processing

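Without the replicate block, 863 genes were higher and 757 lower, and 66 were lower by at least 1 on the log2 scale, in place of 2125, 1949 and 111 with the pairs blocked. DESeq2 without the block gave 1392 and 1209. Total-count scaling gave 1235 higher and 3659 lower. Leaving out 1 pair at a time gave 758 to 3671 higher and 449 to 3388 lower genes, 34 to 110 lower by at least 1 and 118 to 185 higher by at least 1, the extremes of the first 2 being pairs 2 and 4. With at least 10 counts in every library, 58 genes were lower by at least 1, and with a mean of at least 1 CPM 39 were. The cause of these differences was not tested, other than that the stricter filters tested fewer genes and each left-out pair meant fewer libraries. Counts with the other settings (DESeq2 and limma-voom with the block, median-of-ratios and upper-quartile scaling, no filter) stayed within 1.5 times the main counts. None of the 34 named genes changed direction under any alternative, which their choice largely fixed, as each had to move one way in every pair. Without the block 12 of them lost the threshold, with DESeq2 without the block 6, and without pair 1, 2 or 3 the losses were 1, 8 and 2, with 0 for pair 4. UCA1 and RIMKLA lost their difference between lines without the block (0.79 and -0.70). Of 68 lists, 52 kept the sign of their median under all 4 scalings, and the 16 others had main medians under 0.10 in size.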

Other observations

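Over all genes tested 14.9% were higher and 13.6% lower. Solute carriers, the largest family of membrane transporters, changed in both directions, with 49 of 233 higher (21.0%) and 33 lower (14.2%). Their median of 0.02 was -0.02 with upper-quartile and -0.08 with total-count scaling. SLC2A1, the glucose transporter GLUT1, rose by 1.27 ± 0.11, SLC45A1, another sugar transporter, by 1.34 ± 0.15, and SLC16A6, of the monocarboxylate family like SLC16A14, changed by -1.07 ± 0.17. Among 38 potassium channel genes 8 rose (21.1%) and 3 fell (7.89%), with KCNK5 at 0.85 ± 0.08. Circadian clock genes had 7 rises (35%) and 0 falls among 20, led by NFIL3, a repressor of clock output (0.65 ± 0.05), and ARNTL, encoding BMAL1 (0.55 ± 0.10). Of 31 autophagy genes, whose median was below 0 with total-count scaling, 9 rose (29.0%) and 2 fell (6.45%). The related genes ATG16L1 and ATG16L2 moved apart, at 0.58 ± 0.06 and -1.03 ± 0.17.

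Apoptosis regulators had 5 rises (16.1%, against 14.9% of all genes) and 7 falls (22.6%, against 13.6%) among 31. The BH3-only genes BIK and BID rose by 0.80 ± 0.12 and 0.50 ± 0.05, as did the protective gene BCL2L1 (0.39 ± 0.06), while the death receptor gene FAS changed by -0.64 ± 0.09 and CASP8 by -0.34 ± 0.05. JmjC histone demethylases had 6 rises (31.6%) and 2 falls (10.5%) among 19, with HR at 0.91 ± 0.06 and KDM5B at 0.40 ± 0.05. H3 methyltransferases had 2 rises (6.45%) and 5 falls (16.1%) among 31, with a median of -0.008. Their falls were near the share of all genes and included SETD1B at -0.44 ± 0.06 and EZH1 at -0.46 ± 0.11. Replication-dependent histone genes, whose messages mostly lack a poly(A) tail, had 8 rises (22.9%) and 0 falls among 35. Without pair 2 the rises and falls of these lists numbered 20 and 13 for solute carriers, 4 and 1 for potassium channels, 2 and 0 for clock genes, 3 and 1 for autophagy, 3 and 2 for apoptosis, 4 and 0 for demethylases, 0 and 1 for methyltransferases and 3 and 0 for histones. Without pair 4, demethylases had 12 and 3 and methyltransferases 10 and 8. Over all genes the rises and falls numbered 758 and 449 without pair 2 and 3671 and 3388 without pair 4. The prostate genes TMPRSS2 and SLC45A3 rose by 0.86 ± 0.07 and 0.64 ± 0.07.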
